A study of Marchantia polymorpha with 12 samples.

Results

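Plants sense UV-B through the photoreceptor UVR8, which acts on the ubiquitin ligase COP1 and so lets the bZIP transcription factor HY5 accumulate. In flowering plants HY5 switches on genes for flavonoid sunscreens and for RUP proteins, which return UVR8 to its inactive form. Marchantia polymorpha is a liverwort with its own copies of these genes, and the question taken up here is which genes answer UV-B differently when the Mphy5 gene is mutated. The measure is a difference of responses, namely the UV-B response of the mutant minus that of wild type, taken for every gene. Of 18255 genes in the deposited table, 15999 reached a value of 1 in at least 3 libraries and were tested. The responses of 714 of them differed between the lines.

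All 12 libraries of the series were used, 3 in each of 4 groups. The plants were 7-day-old gemmalings, young plants grown out of asexual gemmae, raised in white light of 50 µmol m-2 s-1. The groups were male wild type Tak-1 and the mutant Mphy5-1, also labelled male, each left without UV-B (0 h, called unexposed below) or given 3 h of supplemental UV-B at 1.5 µmol m-2 s-1 (called exposed). The labels name 1 mutant allele, do not give the kind of mutation or how many independent lines were used, and give no hour of harvest, so an effect of elapsed time within the UV-B contrasts was not tested. They number the replicates from 1 to 3 without saying that these came from separate cultures, so p-values reflect the spread between these libraries, which may be technical.

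Recovered reads per library ranged from 44787979 to 67532310, and 3 reads corresponded to 2.34 to 3.58 normalized reads. All genes of the vegetative list were detected in every group. MpRSL1, MpWIP and MpKAR had group means of 1015 to 3005 and MpYUC2 of 1145 to 1740. MpTAA had 723 to 830, and MpGCAM1 only 38.2 to 146.9. Of the sexual-stage list, MpKNOX2 was at 0 in every group and MpBNB and MpPRM had group means of 0 to 3.54. MpBELL, also on that list, was not found by name. The remaining members were detected in every group, with means of 10.6 to 18.3 for MpKNOX1, 29.45 to 35.8 for MpDUO1 and 6639 to 8298 for MpRKD. Values written as 3 libraries and then 3 more are unexposed and exposed, in order of replicate number. In whole gemmalings, fewer cells of a type and less RNA per cell cannot be told apart.

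Most of the UV-B response did not differ detectably between the lines. limma called a difference of responses (Benjamini-Hochberg adjusted p under 0.05) for 714 of the 15999 genes (4.46%), 308 with a more positive response in Mphy5 (1.93%) and 406 with a more negative one (2.54%). UV-B responses themselves were called for 4674 genes in wild type (29.2%) and 5087 in Mphy5 (31.8%), of which 10.4% and 12.1% also had a called difference. The differences were small in size. Their median was 0.43 on the log2 scale, or 1.35-fold, against 0.16 over all tested genes, whose median standard error was 0.13. Only 56 genes (0.35%) differed at least 2-fold, 32 upward and 24 downward, and in 16 of the 56 no group mean reached 50 normalized reads. The lower share of positive differences turned to a majority, 386 against 343, without replicate 1 of unexposed Mphy5.

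A response called in 1 line and not in the other seldom came with a called difference. In wild type alone, 1283 genes were called, and the difference passed its own test for 101 of them (7.87%). In Mphy5 alone, 1696 genes were called, and 230 (13.6%) had a called difference. The classes below therefore sort only the 714 genes with a called difference. Just inside the threshold were Mp6g00130 (difference -0.25) and MpPAL8 (0.38), both at an adjusted p of 0.04997. Just outside it were Mp1g28000 (-0.67, 0.05014) and MpHD19 (-3.27, 0.05055).

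**Figure D1:**
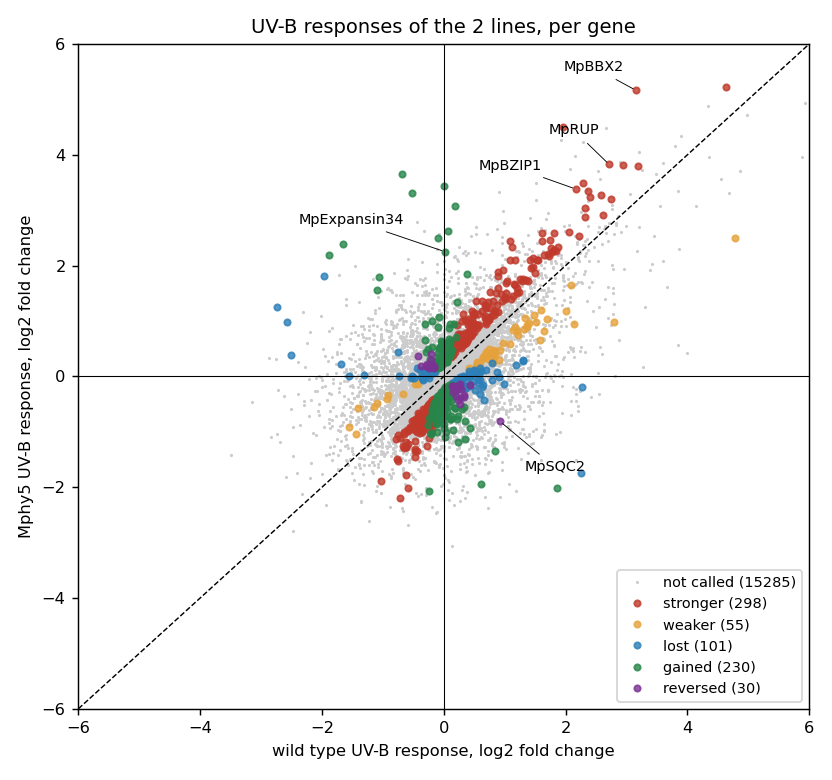
UV-B response of each tested gene in wild type (horizontal axis) and in Mphy5 (vertical axis), as log2 fold changes on the log2(value + 1) scale, coloured by class; the dashed line marks equal responses. The 298 stronger responses lie further from the horizontal zero line than the dashed line does, and the 30 reversed ones sit at upper left and lower right, where the signs are opposite.

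A larger response in the mutant was the most frequent form. Stronger responses, called in both lines in the same direction and larger in Mphy5, made up 298 genes, 160 rises and 138 falls. Weaker responses made up 55, with 45 rises and 10 falls. Lost responses, called in wild type only, made up 101 (63 rises and 38 falls), and gained responses, called in Mphy5 only, made up 230 (89 rises and 141 falls). Reversed responses, called in both lines in opposite directions, made up 30, of which 19 rose and 11 fell in wild type. No gene had a called difference without a called response in at least 1 line. Among the genes that differed at least 2-fold, 27 were gained, 14 lost, 11 stronger, 3 weaker and 1 reversed.

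**Figure D2:**
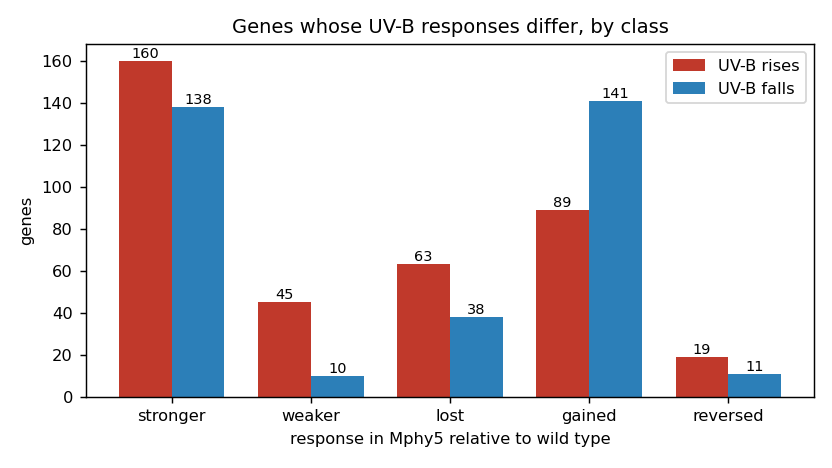
Number of genes in each class of differing response, with red bars for UV-B rises and blue bars for UV-B falls; the direction is that of wild type, except for gained responses, where it is that of Mphy5. Stronger responses are split almost evenly between 160 rises and 138 falls, while gained falls (141) outnumber gained rises (89).

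Typical sizes show what each class consists of. Stronger rises had a median log2 fold change of 0.69 in wild type and 1.14 in Mphy5, and stronger falls of -0.32 and -0.77. Weaker rises went from 0.93 in wild type to 0.49 in Mphy5. Lost rises had medians of 0.42 and -0.07, and gained falls of 0 and -0.50. In the line without a call, the unadjusted p was 0.05 or more for 77 of the 101 lost and 177 of the 230 gained responses. The estimate in that line had the opposite sign for 72 of the lost and 113 of the gained ones. These medians describe genes sorted by the same values and are no test.

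The targeted gene comes first. No entry of the name table is called HY5; MpBZIP1 (Mp1g16800, chromosome 1) is read here as MpHY5, after the published naming of Marchantia genes and without a test. In wild type MpBZIP1 had 1418, 1319 and 1281 normalized reads unexposed and 5999, 6354 and 5745 exposed. In Mphy5 it had 1592, 1522 and 1521 unexposed and 16018, 16815 and 15534 exposed. The exposed mutant libraries lay far above all others, and no groups overlapped. The difference of responses was 1.21 (SE 0.07, adjusted p = 1.08e-08), since a 0.21 gap between the lines before UV-B became one of 1.42 after it. As the kind of mutation is not given, its transcript level is no check on which plants were mutant.

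Light signalling genes cover photoreceptors, their regulators and the factors downstream of them. Of 15 tested light signalling genes 6 had a called difference (40%, against 4.46% over all), 5 more positive and 1 more negative, and all 6 were stronger responses. The list's median difference was 0.08, with a range of -0.37 to 1.21. All the positive ones rose in wild type as well, and their rise was larger in Mphy5. MpBZIP1, the gene taken as the mutated one, is among the 6. This and the other lists were chosen with earlier results of these data known. Their shares therefore describe the lists and are no test.

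MpRUP (Mp2g18040) belongs to the family that switches UVR8 off. It had 1687, 1748 and 1732 normalized reads in unexposed and 11304, 12160 and 10597 in exposed wild type. In Mphy5 it had 962, 921 and 1059 unexposed and 13768, 14862 and 13078 exposed. The mutant thus began below wild type and ended above it, with gaps of -0.81 (adjusted p = 3.91e-09) and 0.29 (adjusted p = 0.000907), which gives a difference of responses of 1.11 (SE 0.09, adjusted p = 1.89e-07).

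MpCOP1 (Mp5g12010), the ubiquitin ligase to which active UVR8 binds, had 2880, 2790 and 2740 normalized reads in unexposed wild type and 5874, 6353 and 5680 in exposed wild type. Mphy5 gave 2514, 2450 and 2348 unexposed and 10274, 10797 and 10439 exposed. Neither line's exposed and unexposed libraries overlapped, and the mutant's exposed libraries were the highest. The difference was 1.02 (SE 0.07, adjusted p = 3.49e-08).

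MpDET1 (Mp8g00970), known in flowering plants as a repressor of light responses, followed the same order. Its values were 4877, 5161 and 4685 in unexposed and 9319, 9643 and 8439 in exposed wild type, and 4513, 4303 and 4270 in unexposed and 15482, 15966 and 14605 in exposed Mphy5. The difference was 0.92 (SE 0.08, adjusted p = 3.41e-07). MpLOVA (Mp8g05020) rose by 0.67 in wild type and 1.09 in Mphy5, a difference of 0.42 (SE 0.10, adjusted p = 0.0202) that lost its call without replicate 2 of unexposed Mphy5 (0.0731), of exposed Mphy5 (0.0586) or of unexposed wild type (0.0656).

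The sixth light signalling gene fell. MpBHLH6 (Mp3g17350, also listed as MpPIF), of the phytochrome-interacting factors that promote growth in the dark, fell by 0.27 in wild type and by 0.63 in Mphy5. The difference was -0.37 (SE 0.09, adjusted p = 0.0292), and it lost its call in 7 of the 12 fits that left out 1 library, most without replicate 1 of unexposed wild type (0.0891).

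No difference was called for the other 9 light signalling genes. The photoreceptor MpUVR8 itself had group means of 6299 and 6118 normalized reads in unexposed and exposed wild type and 6451 and 6575 in Mphy5, a difference of 0.07 (SE 0.07, adjusted p = 0.691). MpSPA1, a partner of COP1, had a difference of 0.21 (SE 0.08, adjusted p = 0.179). MpCRY-DASH, a relative of cryptochromes and photolyases, rose by 2.23 in wild type and 2.27 in Mphy5 (difference 0.03, SE 0.10, adjusted p = 0.925), and the red-light receptor MpPHY by 0.52 and 0.53 (difference 0.01, SE 0.06). MpFHY1, MpCRY, MpFKF, MpDDB1 and MpPHOT had differences of -0.23 to 0.13.

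**Figure D3:**
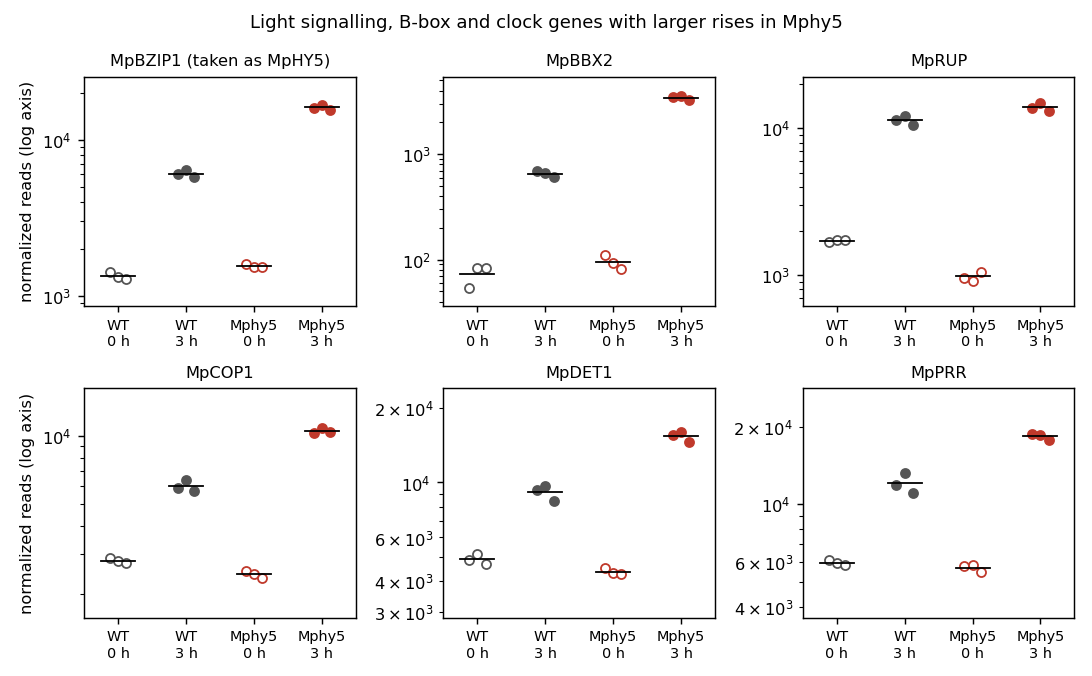
Normalized reads (log axis) of 6 genes in each of the 12 libraries, in grey for wild type and red for Mphy5, open for unexposed and filled for exposed; black lines are group means. In each of the 6 genes the 3 exposed Mphy5 libraries lie above the 3 exposed wild type libraries, with MpBZIP1 at 15534 to 16815 against 5745 to 6354.

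B-box proteins are zinc finger factors, several of which work with HY5 in flowering plants. Of 6 tested, 4 differed (66.7%, against 4.46% over all), 3 more positive and 1 more negative. MpBBX2 (Mp3g20050) had 54.1, 84.1 and 83.1 normalized reads in unexposed and 693, 667 and 602 in exposed wild type, and 112, 93.6 and 81.4 in unexposed and 3483, 3582 and 3236 in exposed Mphy5. Unexposed libraries of the lines overlapped, and exposed ones were far apart. The difference was 2.01 (SE 0.22, adjusted p = 1.03e-05).

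Among the other B-box genes, MpBBX3 (Mp3g19670) was a gained rise, with 5711, 5590 and 5355 normalized reads in unexposed and 5516, 5672 and 5099 in exposed wild type, but 5649, 4749 and 4432 in unexposed and 7127, 7877 and 7669 in exposed Mphy5. Wild type libraries overlapped and mutant ones did not, and the difference was 0.65 (SE 0.10, adjusted p = 0.000888). MpBBX1 (Mp5g05940) rose by 0.24 in wild type and 0.53 in Mphy5 (difference 0.29, adjusted p = 0.0126). MpBBX5 (Mp8g13470) fell by 0.43 and 0.67 (difference -0.24, adjusted p = 0.0157), a call lost without replicate 1 of unexposed wild type (0.0507). MpBBX4 (-0.01) and MpBBX6 (-0.41, adjusted p = 0.0999) were not called.

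Among 7 clock genes, 2 differed (28.6%, against 4.46% over all), both more positive. MpPRR (Mp2g16560), a pseudo-response regulator, had 6082, 5940 and 5802 normalized reads in unexposed and 11901, 13164 and 11080 in exposed wild type, and 5794, 5822 and 5458 in unexposed and 18719, 18572 and 17763 in exposed Mphy5. Unexposed libraries of the lines overlapped and exposed ones did not, with a difference of 0.67 (SE 0.07, adjusted p = 1.63e-05). Mp1R-MYB11 (Mp2g14310, also listed as MpRVE), of a family of morning-phased MYB factors, was a gained rise, with 0.07 in wild type and 0.44 in Mphy5 (difference 0.36, adjusted p = 0.0236). It lost its call in 5 of the 12 fits that left out 1 library, most without replicate 2 of exposed Mphy5 (0.0646). MpELF3, MpGI, MpELF4, MpTOC1 and MpGARP7 (also listed as MpLUX) had differences of -0.17 to 0.18 that were not called.

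Larger rises differed in where the lines stood apart. Over all tested genes, a gap between the lines was called for 24.9% without UV-B and for 29.8% with UV-B. Of the 160 stronger rises, the gap between the lines was called only with UV-B for 66, only without UV-B for 39 and at both times for 55. The unexposed mutant was lower for 81 and higher for 13, and the exposed mutant was higher for 108 and lower for 13. MpBBX2 and MpPRR belong to the genes called apart only after UV-B. The 138 stronger falls ended lower in Mphy5 in 110 cases and higher in 0, and began higher in 50 and lower in 22. These gaps come from the libraries that also give the differences, so they describe the differences and add no support.

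**Figure D4:**
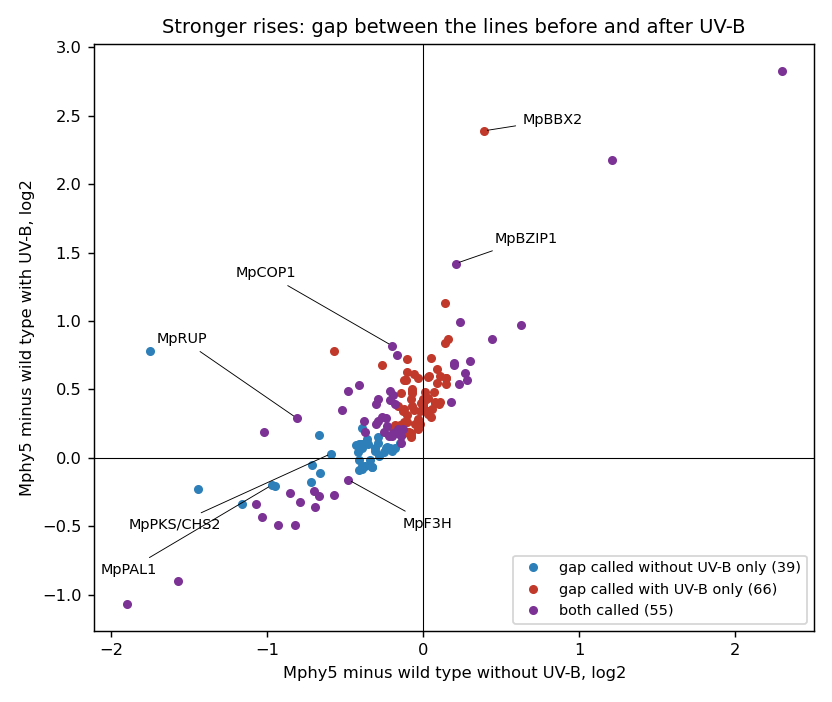
Gap between Mphy5 and wild type without UV-B (horizontal axis) and with UV-B (vertical axis), in log2 units, for the 160 genes with a stronger rise, coloured by the time at which the gap was called. MpBZIP1 and MpBBX2 lie high on the vertical axis at 1.42 and 2.39, while MpPKS/CHS2 and MpPAL1 lie left of 0 at -0.59 and -0.97 and near 0 on the vertical axis.

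The pigment enzymes with larger rises were of the kind that began lower in the mutant. MpPKS/CHS2 (Mp2g07060), a chalcone synthase family gene at the first flavonoid step, had 6850, 6344 and 6303 normalized reads in unexposed and 59618, 64451 and 53414 in exposed wild type. In Mphy5 it had 4309, 4315 and 4305 unexposed and 58839, 62744 and 58648 exposed. Exposed libraries of the lines overlapped and unexposed ones did not. The difference of 0.62 (SE 0.08, adjusted p = 7.32e-05) thus stood beside gaps of -0.59 before and 0.03 (adjusted p = 0.778) after UV-B.

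MpPAL1 (Mp1g10150), a phenylalanine ammonia-lyase at the entry to the pathway, had 5016, 5097 and 4370 normalized reads in unexposed and 17703, 18817 and 14455 in exposed wild type, against 2398, 2415 and 2543 and then 15008, 15647 and 13625 in Mphy5. Only the unexposed libraries were clearly apart, and the difference was 0.78 (SE 0.13, adjusted p = 0.00324). MpF3H (Mp1g26540), which hydroxylates flavanones, rose by 2.61 in wild type and 2.92 in Mphy5 (difference 0.31, adjusted p = 0.0173) and was lower in the mutant at both times, by gaps of -0.48 and -0.16. Its call was lost without replicate 2 of unexposed Mphy5 (0.0621), of exposed Mphy5 (0.0514) or of unexposed wild type (0.0504). MpUGT9, a UDP-glycosyltransferase, had a difference of 0.32 (adjusted p = 0.043) that was lost in 10 of 12 such fits, up to 0.126 without replicate 2 of unexposed Mphy5.

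The later flavonoid, phenylpropanoid entry and chalcone synthase lists had called differences at 7.14% to 15.4%, against 4.46% over all tested genes. Each share rests on few called genes. Of 28 later flavonoid and aurone enzymes, 2 differed (7.14%), MpF3H and MpLAR-like4, although 16 rose in wild type and 17 in Mphy5. MpLAR-like4 (Mp7g05760), named for leucoanthocyanidin reductases, was a gained fall with a difference of -0.32 (adjusted p = 0.0279), lost in 5 of 12 fits without 1 library and most without replicate 1 of exposed wild type (0.0903). Of 16 phenylpropanoid entry genes 2 differed (12.5%). Besides MpPAL1 this was MpPAL8, a lost fall (-0.30 in wild type, 0.08 in Mphy5) whose difference of 0.38 was just inside the threshold and whose call went in 8 of 12 such fits (up to 0.127, without replicate 1 of exposed Mphy5).

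In the chalcone synthase family 4 of 26 genes differed (15.4%, against 4.46% over all), in unlike ways. MpPKS/CHS14 and MpPKS/CHS15, which are neighbours on chromosome 4, fell less in Mphy5 and stood higher there at both times. MpPKS/CHS14 (Mp4g14190) went from 2815, 3170 and 2818 normalized reads to 1104, 1088 and 1027 in wild type and from 5011, 4468 and 4536 to 2168, 2375 and 2288 in Mphy5, with a difference of 0.41 (SE 0.09, adjusted p = 0.00666). That call went without limma's trend and robust options (adjusted p = 0.0667). MpPKS/CHS15 (Mp4g14200) had a difference of 0.65 (adjusted p = 0.0345), lost in 7 of 12 fits without 1 library (up to 0.0949, without replicate 2 of exposed wild type). Its call also went with edgeR, with the replicate number as a block, and without limma's trend and robust options. MpPKS/CHS10 (Mp4g14100) fell more, by 0.24 in wild type and 0.82 in Mphy5 (difference -0.58, adjusted p = 0.00724). The labels do not say how reads shared by near-identical copies were counted. Values of single members of this and the other gene families are therefore uncertain.

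Factors of the bHLH and bZIP families differed in 13 of 56 cases (23.2%, against 4.46% over all), 5 more positive and 8 more negative. Of the 13, 10 were stronger responses. MpBZIP1 and MpBHLH6, already counted among the light signalling genes, are among the 13. MpBHLH15 (Mp6g18480) fell by 0.23 in wild type and 0.79 in Mphy5 (difference -0.56, SE 0.07, adjusted p = 7.17e-05), and MpBHLH39 (Mp5g18820) rose by 0.46 and 0.96 (difference 0.49, adjusted p = 0.000396). MpBHLH3 (Mp2g00910) was a weaker rise, from 403, 388 and 450 normalized reads to 686, 721 and 775 in wild type and from 1003, 988 and 924 to 1156, 1158 and 1185 in Mphy5. The mutant's unexposed libraries were already above the exposed wild type ones, and the difference was -0.55 (SE 0.11, adjusted p = 0.0055).

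Other factor families differed in fewer cases, at shares to be read against 4.46% over all tested genes. Among AP2/ERF and WRKY factors 5 of 36 differed (13.9%). MpERF7 was a gained rise (difference 0.60, adjusted p = 0.00726), MpAP2B3-1 a lost rise (difference -0.42, adjusted p = 0.00136), and MpERF11 a lost rise (0.87 in wild type, 0.09 in Mphy5) with a difference of -0.78 (adjusted p = 0.0459) whose call went in 10 of 12 fits without 1 library, up to 0.129 without replicate 1 of exposed Mphy5. Of 41 MYB factors 4 differed (9.76%). MpR2R3-MYB4 (Mp3g02830) was a lost rise, with 4750, 5038 and 5229 normalized reads in unexposed and 6554, 7091 and 6353 in exposed wild type, but 5607, 5719 and 5488 and then 5641, 6103 and 5542 in Mphy5. The mutant's libraries overlapped and the difference was -0.37 (SE 0.07, adjusted p = 0.00369). Of 51 NAC, C2H2, GRAS, HD and MADS factors 4 differed (7.84%), among them MpC2H2-9 (difference 0.55, adjusted p = 0.00242) and MpGRAS1, a gained fall (difference -0.41, adjusted p = 0.00218).

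Auxin is the hormone that directs growth and patterning. Of its 31 tested genes 2 differed (6.45%), near the 4.46% over all tested genes. Both are carriers and both were more negative, as were 406 of all 714 called differences. MpAUX1 (Mp1g29330), of the auxin importers, had 5598, 6036 and 5842 normalized reads in unexposed and 6277, 6553 and 6121 in exposed wild type. In Mphy5 it had 5818, 5468 and 5499 unexposed and 3433, 3366 and 3437 exposed. The exposed mutant alone was low, and the difference was -0.83 (SE 0.06, adjusted p = 1.89e-07). MpPIN1 (Mp3g21660), of the auxin exporters, fell in both lines, from 8142, 8290 and 8750 to 6175, 6364 and 6549 in wild type and from 10209, 9808 and 10439 to 4934, 5043 and 5066 in Mphy5. It began higher and ended lower in the mutant, with a difference of -0.62 (SE 0.06, adjusted p = 4.18e-06). MpCKX2 (Mp5g10910), of the cytokinin oxidases that break down another hormone, rose by 1.07 in Mphy5 only (difference 1.14, adjusted p = 0.00158) from a level far below wild type, with 125, 155 and 126 normalized reads in unexposed Mphy5 against 493, 703 and 740 in wild type.

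**Figure D5:**
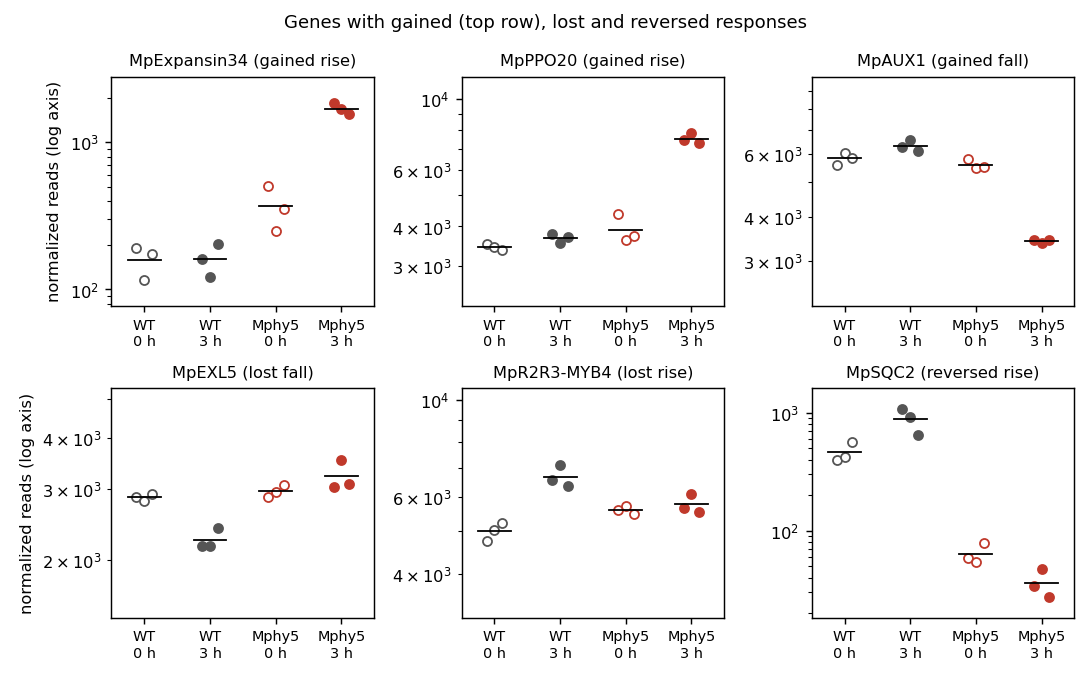
Normalized reads (log axis) of 6 genes in each of the 12 libraries, in grey for wild type and red for Mphy5, open for unexposed and filled for exposed; black lines are group means. In the top row only the mutant responds clearly, with MpAUX1 at 3366 to 3437 in exposed Mphy5; in the bottom row MpEXL5 and MpR2R3-MYB4 change clearly in wild type only, and MpSQC2 moves up in wild type and down in Mphy5.

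Among gained responses, MpExpansin34 (Mp4g22180), of the cell wall loosening expansins, had 190, 115 and 174 normalized reads in unexposed and 162, 122 and 203 in exposed wild type. In Mphy5 it had 508, 249 and 350 unexposed and 1847, 1683 and 1555 exposed. Wild type groups overlapped and the mutant's did not, with a difference of 2.23 (SE 0.38, adjusted p = 0.00551). MpPPO20 (Mp4g02130), a polyphenol oxidase, had 3532, 3449 and 3374 and then 3792, 3555 and 3716 in wild type, against 4374, 3630 and 3732 and then 7458, 7818 and 7278 in Mphy5. Its exposed mutant libraries stood far above the rest, the wild type groups lay close together without overlapping, and the difference was 0.85 (SE 0.08, adjusted p = 2.98e-06).

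Gained falls were more numerous than gained rises. MpKFB01_20 (Mp6g10520), a kelch F-box gene, had 3416, 3469 and 3396 and then 3350, 3640 and 3342 normalized reads in wild type, and 4054, 3190 and 3415 and then 1715, 2047 and 2126 in Mphy5 (difference -0.86, adjusted p = 0.000417). The exposed mutant libraries were the lowest, and the other groups overlapped. The chitinase-family gene MpGH19.7 (difference -0.89, adjusted p = 0.00337), the polyphenol oxidase MpPPO37 (-0.60, adjusted p = 7.45e-05) and MpExpansin32 (-0.73, adjusted p = 0.000142) were likewise gained falls. All 3 began lower in Mphy5 and ended lower still. MpGH19.9 (difference -1.12, adjusted p = 0.0188) lost its call without replicate 2 of unexposed Mphy5 (0.0675) or replicate 3 of unexposed wild type (0.0536).

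Of the stronger falls, MpHCT (Mp7g12690), named for hydroxycinnamoyl transferases of the phenylpropanoid pathway, had 13751, 15587 and 14744 normalized reads in unexposed and 12209, 12816 and 12094 in exposed wild type. Mphy5 gave 17984, 15624 and 14651 unexposed and 6526, 7625 and 8195 exposed, and the difference was -0.87 (SE 0.12, adjusted p = 0.000952). Exposed mutant libraries were the lowest. The lipoxygenase MpLOX14 (difference -0.73, adjusted p = 0.00878), the dioxygenase MpDOXC28 (-0.86, adjusted p = 0.00367) and the cytochrome P450 gene MpCYP824A1 (-0.76, adjusted p = 2.53e-05) also fell more in Mphy5.

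Weaker rises included MpDOXC15 (Mp3g11060), another dioxygenase, which had 56.9, 61.1 and 67.8 normalized reads in unexposed and 181, 199.8 and 179.7 in exposed wild type. In Mphy5 it had 433, 538 and 638 unexposed and 856, 882 and 759.6 exposed, so that every mutant library was above every wild type library. The difference was -0.93 (SE 0.20, adjusted p = 0.00868). MpDIR25 (Mp5g18490), of the dirigent proteins that steer phenolic coupling, rose by 1.36 in wild type and 0.89 in Mphy5, and MpNPF6, of a family of nitrate and peptide transporters, by 1.32 and 0.85. Both had a difference of -0.48 (adjusted p = 0.00825 and 0.0106) and both were lower in the mutant at both times. Mp5g20350, without a symbol, had 12.8, 11.0 and 9.24 and then 328, 358 and 302 in wild type, and 47.7, 46.0 and 54.6 and then 377, 289 and 211 in Mphy5. Its exposed libraries overlapped between the lines and its unexposed ones did not, with a difference of -2.28 (SE 0.32, adjusted p = 0.000201).

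Lost responses were the class whose calls were least stable. When each library was left out in turn, 43 of the 101 lost responses (42.6%) kept a called difference in all 12 fits, against 62.1% of stronger, 52.7% of weaker, 51.7% of gained and 96.7% of reversed ones. MpEXL5 (Mp7g05080), a lost fall that kept it, had 2855, 2801 and 2914 normalized reads in unexposed and 2163, 2171 and 2404 in exposed wild type, and 2869, 2938 and 3056 and then 3035, 3531 and 3077 in Mphy5. Only the exposed wild type libraries were low (difference 0.47, SE 0.08, adjusted p = 0.00213). Mp5g00830 went from 403, 669 and 440 to 145, 222 and 109.7 in wild type, while in Mphy5 it was low throughout, between 48.9 and 101.5 (difference 1.90, adjusted p = 0.00854). The lost rises MpNPF9 (difference -1.01) and MpGH16.7 (-0.66) and the lost falls MpARFA3 (0.35) and MpMTPSL-like (0.32) lost their calls in 9, 9, 7 and 10 of the 12 fits, up to adjusted p-values of 0.114, 0.0824, 0.0923 and 0.127. Those came without replicate 3 of unexposed Mphy5, replicate 1 and replicate 2 of unexposed wild type, and replicate 2 of unexposed Mphy5.

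Reversed responses were mostly small. Of the 30 genes, 29 had a difference of at most 0.79. In 29, exposed and unexposed libraries did not overlap in either line. The class requires a called response in both lines, so this separation describes the sorting and is no trait of reversed genes. MpSQC2 (Mp8g14150), of the terpene list, was the exception in size. It had 397, 420.4 and 562 normalized reads in unexposed and 1066, 923 and 643 in exposed wild type, and 58.6, 53.8 and 78.2 and then 34.3, 47.0 and 27.5 in Mphy5. It rose in wild type and fell in Mphy5, whose libraries were all below those of wild type (difference -1.72, SE 0.31, adjusted p = 0.00227). Mp5g12930 had 4130, 4172 and 4104 and then 3170, 3148 and 2960 in wild type, but 4223, 3903 and 3997 and then 5318, 5111 and 5186 in Mphy5 (difference 0.79, SE 0.06, adjusted p = 3.41e-07). Unexposed libraries of the lines overlapped, and exposed ones lay on opposite sides of them.

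In the lists of ABC transporters and organelle RNA proteins, the few called differences were mostly more positive. Over all genes, 4.46% were called, and 308 of the 714 were more positive. Called wild type responses were 30 rises and 18 falls for the transporters, and 25 rises and 5 falls for the organelle RNA proteins. Of 93 ABC transporters 8 differed (8.6%), 7 more positive, with MpABCF1 (difference 0.42, adjusted p = 0.000221), MpABCC6 (0.56, adjusted p = 0.000366) and MpABCC5 (0.55, adjusted p = 0.000563) at the smallest adjusted p. Of 73 pentatricopeptide repeat proteins, which process organelle RNA, 6 differed (8.22%), 5 more positive, among them MpPPR_73 (difference 0.57, adjusted p = 7.12e-05). The heat shock list had 1 of 5 (20%), MpHSP90-4, a chaperone whose rise was larger in Mphy5 (difference 0.29, adjusted p = 0.0111). Of 66 dehydrin and late embryogenesis abundant proteins 5 differed (7.58%), 2 more positive and 3 more negative. MpLEA-like18 rose more in Mphy5 (difference 1.35, adjusted p = 0.0137), MpLEA-like8 fell more (-0.52, adjusted p = 0.000686), and MpLEA-like3 was a gained fall (-0.51, adjusted p = 0.0107).

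The remaining lists held at most 5 called genes each, at shares on either side of the background of 4.46%. Called differences numbered 4 of 33 dioxygenases (12.1%), 5 of 41 expansins (12.2%), 2 of 28 terpene synthases (7.14%) and 1 of 20 oxylipin genes (5.0%). They numbered 2 of 41 genes of dividing cells (4.88%), 2 of 43 polyphenol oxidases (4.65%), 4 of 108 cytochrome P450 genes (3.7%) and 5 of 146 peroxidases (3.42%). UDP-glycosyltransferases had 1 of 35 (2.86%), other numbered glycosyltransferases 2 of 83 (2.41%) and antioxidant enzymes 1 of 49 (2.04%). None of 3 repair and 3 reference genes was called.

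Genes with differing responses were found on every autosome, at 4.1% to 5.11% of those tested, and on neither sex chromosome, with 0 of 50 tested genes of the male V chromosome and 0 of 7 of the female U chromosome. Transcripts of the 92 V genes gave summed group means between 143900 and 161709 normalized reads, and those of the 63 U genes between 119.5 and 138.5, in both lines. Neighbours were counted by the numbering of loci among the tested genes, and only where direction of response and sign of difference were the same. On that rule 52 of the 714 genes formed 26 pairs and no longer run. Neighbours of unlike direction or sign were not counted. Whether 26 is more than randomly placed genes would give was not tested. Among the pairs, MpPPR_73 and MpPOD169 were both stronger rises, with differences of 0.57 and 0.94.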

How the data were processed

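The values in the deposited table are a normalized signal, 1 per gene and library. They behave as whole reads scaled by a single factor in each library: within 0.02 reads, 100% of nonzero entries are whole multiples of that library's step. Libraries were Illumina TruSeq, read as single ends of 100 bases, per the labels' protocols, and STAR 2.7.4 is named in the submitters' processing notes. The sources used here do not name a genome build, annotation, counting program or strand setting. Names came from a RefSeq table of assembly MpTak2_v7.1, which matched 18082 of 18255 identifiers (99.1%), 3110 with a symbol.

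limma 3.58.1 (R 4.3.3, trend and robust options) was run on log2(value + 1) with 4 group means over 12 libraries and 8 residual degrees of freedom, for genes that reach a value of 1 in 3 or more libraries. P-values were Benjamini-Hochberg adjusted over the 15999 genes, and a gene under 0.05 is said to be called. Differences are Mphy5 response minus wild type response. The pseudocount understates folds of low genes. Classes follow the calls of each line's response. Responses and gaps between lines share libraries with the difference.

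Named were MpBZIP1; for each class and direction up to 4 genes with a symbol and 1 without, with the largest called difference, a group mean of at least 50 and a sign kept without each library; every called member of the light, B-box, clock and flavonoid lists; and up to 3 called members of each other list by adjusted p. The text describes a selection of these 91 genes. Genes outside the rule (neighbouring pairs, uncalled list members, genes at the threshold) were chosen by place, list or p. The 28 lists go by symbol. The genes and lists were chosen with earlier results of these data known.

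Alternatives tried were TMM and median-ratio rescaling, a filter at 5 or none, pseudocounts of 0.1 and 5, the replicate number as a block, limma without trend and robust options, a 2-fold minimum, stricter lost and gained classes, each library left out, and edgeR 4.0.16 and DESeq2 1.42.0 on recovered reads. The fits were also run on simulated data, with planted differences of at least 2-fold in genes with a mean of at least 50. Most called differences here were smaller, so those runs do not speak for them. Tables and plots used Python 3.11.15, pandas 2.3.3, numpy 2.4.6 and matplotlib 3.10.9. A planned description of promoter motifs was not run, since no promoter sequences were used here.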

Additional observations from a re-analysis of the deposited data

Results flagged for a closer look

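Several named genes were picked out because their UV-B responses ran in opposite directions in the lines and the difference of responses passed the test. In each, exposed and unexposed libraries did not overlap within either line. That separation describes the sorting, and libraries of the 2 lines could still overlap each other. MpSQC2 had a difference of -1.72 (wild type 0.92, Mphy5 -0.81), Mp5g20590 of -0.76 (0.26 and -0.50) and the peroxidase MpPOD156 of -0.67 (0.34 and -0.34). MpEBF1-2 had a difference of -0.39 (0.20 and -0.19) and the histone gene MpH2B.1 of -0.31 (0.14 and -0.17). Mp5g12930 had a difference of 0.79 (-0.42 and 0.37). Each of these kept its call when any 1 library was left out.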

How the results depend on the processing

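None of the 91 named differences changed sign under any alternative. For genes named by class, a sign kept without each library was part of the rule, so those fits could not show a change. All 91 were called in the main fit. TMM or median-ratio rescaling moved the median difference of all genes to no more than -0.012. Without limma's trend and robust options 332 differences were called (159 more positive, 173 more negative; stronger 121, weaker 17, lost 46, gained 121), and 36 of the 91 lost their call. Among the 36 were MpPKS/CHS14, MpDOXC28, MpDIR25, MpNPF6, MpR2R3-MYB4, MpC2H2-9, MpHSP90-4, MpLEA-like3 and Mp5g00830. With a 2-fold minimum 56 were called (32 and 24; stronger 11, weaker 3, lost 14, gained 27, reversed 1). DESeq2 gave 161 lost responses and 435 positive against 561 negative calls; edgeR gave 314 and 488, TMM rescaling 297 and 463. Leaving out each library gave 482 to 729 calls (204 to 386 positive, 278 to 438 negative; stronger 206 to 328, weaker 36 to 69, lost 58 to 140, gained 152 to 242, reversed 26 to 37), and 405 of the 714 genes (56.7%) were called in all 12 fits. Among these fits, positive calls (204), lost (58) and gained (152) responses were fewest without replicate 2 of unexposed Mphy5, and weaker ones (36) without replicate 1 of exposed wild type or replicate 3 of exposed Mphy5. With the replicate number as a block, 354 positive and 425 negative calls were made, and 5 of the 91 named calls were lost (MpPKS/CHS15, MpNPF9, MpERF11, MpGH16.7 and MpGT34.6). Without a filter 6 were lost, and with a pseudocount of 0.1, 3. The main fit did not pair the samples by replicate number. Same-numbered libraries deviated with correlations of -0.165 to 0.248 over 18 pairs, 5 of them over 0.1. Differently numbered libraries had correlations of -0.301 to 0.221, and 5 of 12 libraries correlated best with their own number. Whether same-numbered libraries shared a batch or culture was not tested. The causes of the changes in calls were not tested. Genes near 3 reads per library are limited by depth.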
